A study of Rattus norvegicus with 9 samples.

Results

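Toll-like receptors (TLRs), the coreceptor Cd14 and the proteins that carry their signal were followed in neural stem cells (NSCs), as 10 genes named by family and role. These were the receptors Tlr2, Tlr3, Tlr4 and Tlr7, the coreceptors Cd14 and Ly96, the adaptors Myd88 and Ticam1, and the kinases Irak1 and Irak4. Of the 10, 9 had a row among the 23953 genes of the count table, and the expression of Tlr4 was not analysed here. The table gives them mouse NCBI gene numbers: 12475 for Cd14, 24088 for Tlr2, 142980 for Tlr3, 170743 for Tlr7, 17087 for Ly96, 17874 for Myd88, 106759 for Ticam1, 16179 for Irak1 and 266632 for Irak4. The set was named by family and role but selected on measured values too, since an earlier analysis of these counts was known, in which the fold change of Cd14 with the exosomes of Wnt5a-overexpressing cells had already stood out. Their values are therefore given as a description, and the calls on them are no independent evidence.

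The NSCs were taken from neonatal rat spinal cord and kept in a differentiation medium that contains serum and growth factors. The Con group received this medium alone, the Exo group also received exosomes (small secreted vesicles) of bone marrow mesenchymal stem cells (BMSCs), and the pLV-Exo-Wnt5a group received exosomes of BMSCs that overexpressed Wnt5a. According to the study's methods, the exosomes of the Exo group came from BMSCs that carried an empty lentiviral vector, so both exosome groups share transduced donor cells, and Wnt5a was overexpressed in the donors rather than in the NSCs. Each group had 3 libraries, 9 in all, and the sources used here do not tie them to separate cultures. The methods mention replicates of each group for the differentiation experiment without linking libraries to them, so the spread between libraries may be technical.

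TLRs are receptors of the innate immune system. Tlr2 and Tlr4 sit at the cell surface and recognise bacterial lipoproteins and lipopolysaccharide, whereas Tlr3 and Tlr7 sit in endosomes and recognise double-stranded and single-stranded RNA. Cd14 hands ligands to Tlr2 and Tlr4, and Ly96 (MD-2) forms the binding pocket of Tlr4. Tlr2 and Tlr7 signal through Myd88, which recruits Irak4 and then Irak1, whereas Tlr3 signals through Ticam1 (TRIF), and Tlr4 uses both. Both routes can activate NF-κB, a pathway the study followed up in these cells. In the nervous system, microglia carry most TLRs and Cd14, and astrocytes are known for Tlr3.

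Total counts ran from 32765138 to 40427647 per library, and the floor of 3 counts, the limit set by a count of 0, lay at 0.0742 to 0.0916 CPM, the unit in which a count is scaled to the total of its library. This limit covers counting error only. Markers of neural stem cells were present together with those of other cell types: all 6 stem cell markers (such as Sox2 and Nes), all 8 astrocyte markers, all 7 neuronal markers and all 7 oligodendrocyte lineage markers had at least 10 counts in every library. In bulk RNA fewer cells of a type and less RNA per cell cannot be told apart. Levels are compared between groups. The count table gives no transcript lengths, so where a gene is said to have the most counts of a list, that is a count of reads and not a level.

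Because NF-κB lies downstream of TLRs, the promoters of the genes were searched for the NF-κB consensus and for the core of the interferon-stimulated response element. Promoters of 300 bases, from 250 before to 50 after the start of the gene, were taken from RefSeq on rat build GRCr8 and were found for 8 of the 10 genes, Cd14 and Tlr4 included and Ly96 and Ticam1 not. The NF-κB consensus, searched on both strands, lay in 1 of the 8, against 7.51% of all 33469 promoters of that length. A narrower form, GGG, any 2 bases and TTTCC, had been searched first and lay in 0 of the 8, against 1.53% of all promoters. The response element core, GAAA, any 2 bases and GAAA, lay in 1 of the 8, against 3.92%. Both promoters with a match are shown, with the matched letters in capitals.
Tlr2, chr2:171504508-171504807, minus strand: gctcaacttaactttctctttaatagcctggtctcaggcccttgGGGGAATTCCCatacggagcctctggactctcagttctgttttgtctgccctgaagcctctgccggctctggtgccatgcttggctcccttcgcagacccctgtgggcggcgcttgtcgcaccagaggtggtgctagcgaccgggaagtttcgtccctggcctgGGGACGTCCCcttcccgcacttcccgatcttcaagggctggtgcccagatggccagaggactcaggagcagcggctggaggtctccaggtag
Myd88, chr8:127956181-127956480, minus strand: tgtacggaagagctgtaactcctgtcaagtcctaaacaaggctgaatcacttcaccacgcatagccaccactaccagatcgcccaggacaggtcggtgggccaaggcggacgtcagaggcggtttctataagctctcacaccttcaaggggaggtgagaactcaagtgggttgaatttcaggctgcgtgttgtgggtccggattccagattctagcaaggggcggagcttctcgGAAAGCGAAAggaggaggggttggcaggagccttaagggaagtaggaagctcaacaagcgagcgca
In the Tlr2 promoter, 2 stretches in capitals match the NF-κB consensus, and the longer one holds a pair of overlapping matches. In the Myd88 promoter the capitals match the response element core. These are matches of letters in a reference sequence, and no binding was measured.

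Of the named receptors with a row (Tlr2, Tlr3 and Tlr7), Tlr2 was the only one well above the floor in every library. It had 56, 66 and 43 counts in Con replicates 1, 2 and 3, 36, 48 and 18 in the Exo replicates and 43, 49 and 72 in the pLV-Exo-Wnt5a replicates. The mean level was 1.49 ± 0.197 CPM for Con, 0.855 ± 0.373 for Exo and 1.39 ± 0.332 for pLV-Exo-Wnt5a (SD, n = 3 each). All 3 Exo libraries lay below all 3 Con libraries, while the pLV-Exo-Wnt5a libraries overlapped both other groups. The log2 fold change (log2FC) was -0.80 (standard error 0.38, 95% interval -1.64 to 0.04) for Exo against Con. For the pLV-Exo-Wnt5a libraries it was 0.71 (0.39, -0.16 to 1.58) relative to Exo and -0.10 (0.31, -0.78 to 0.57) relative to Con. Each of the 3 intervals includes 0.

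Tlr3, the sensor of double-stranded RNA, lay near the floor, with a median of 9 counts over the 9 libraries. It had 9, 3 and 7 counts in the Con libraries, 36, 4 and 7 in the Exo libraries and 24, 18 and 36 in the pLV-Exo-Wnt5a libraries. The 36 counts of Exo replicate 1 (exact 95% Poisson interval 25.2 to 49.8) stood apart from the 4 and 7 of the other Exo libraries (1.09 to 10.2 and 2.81 to 14.4). These intervals cover counting error only, and replicate libraries differed by more than that over all genes too. All pLV-Exo-Wnt5a libraries lay above all Con libraries, at 0.656 ± 0.195 against 0.175 ± 0.0861 CPM (SD, n = 3 each).

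The log2FC of Tlr3 for pLV-Exo-Wnt5a against Con was 1.90 (standard error 0.55, 95% interval 0.69 to 3.10). It passed the filter on low counts through the pLV-Exo-Wnt5a group, in which it is high, and was not tested for Exo against Con. Against the Exo group its log2FC was 0.74 (0.69, -0.79 to 2.26), and this value turned on 1 library: without Exo replicate 1 it was 2.24, and with any other library left out it was between 0.27 and 0.90.

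Tlr7, the sensor of single-stranded RNA, was at the floor. It had 1, 0 and 4 counts in the Con libraries, 1, 2 and 1 in the Exo libraries and 2 in each pLV-Exo-Wnt5a library, so 8 of 9 libraries had 3 counts or fewer. A difference between groups was not detectable at this depth, and no fold change is given. Other receptors also had few counts: Tlr1, Tlr6, Tlr9 and Tlr13 had at most 8, 11, 17 and 4 counts in any library. Tlr5, the flagellin receptor, was the exception, with 96 to 184 counts.

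**Figure D1:**
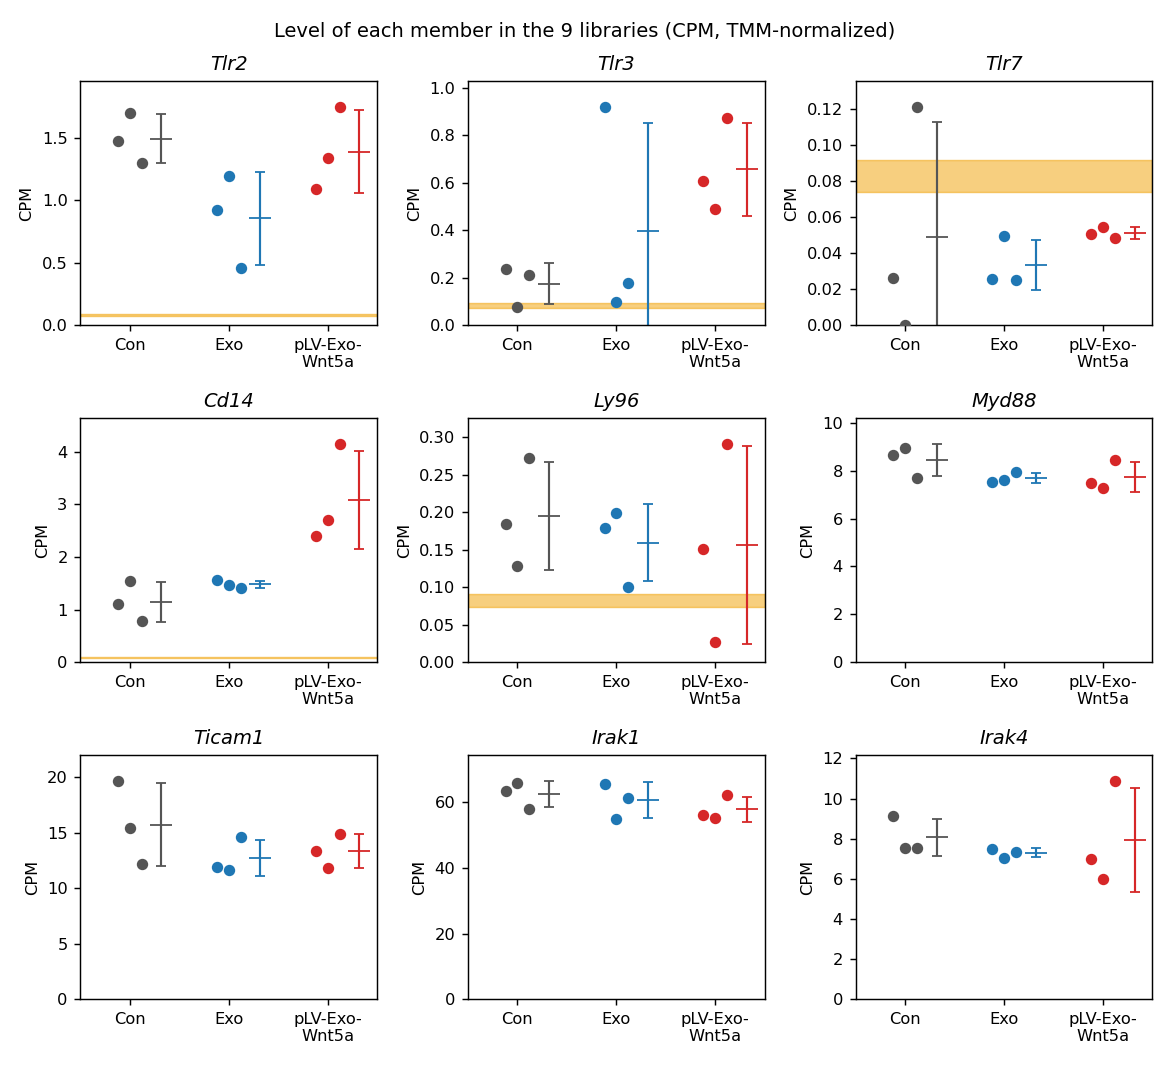
Level of each of the 9 genes in CPM on a linear axis from 0, with points for the 3 libraries of each group (replicates 1 to 3 from left to right) and a bar for mean and SD; where all libraries are under 5 CPM, the orange band marks 3 counts, 0.0742 to 0.0916 CPM. The pLV-Exo-Wnt5a libraries of Cd14 lie above the 6 others, Tlr7 lies below the band in 8 of 9 libraries, and the adaptors and kinases overlap between groups, apart from Irak4 between Exo and Con.

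Cd14, the coreceptor that binds lipopolysaccharide, showed the clearest separation. It had 42, 60 and 26 counts in the Con libraries, 61, 59 and 56 in the Exo libraries and 95, 99 and 171 in the pLV-Exo-Wnt5a libraries. Mean levels were 1.14 ± 0.378 CPM for Con, 1.48 ± 0.0728 for Exo and 3.08 ± 0.932 for pLV-Exo-Wnt5a (SD, n = 3 each). Every pLV-Exo-Wnt5a library lay above every library of the other groups, and Con and Exo overlapped. The log2FC was 1.07 (standard error 0.27, 95% interval 0.48 to 1.66) against the Exo group and 1.42 (0.33, 0.71 to 2.13) against the Con group, while Exo against Con gave 0.36 (0.32, -0.35 to 1.07).

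The highest Cd14 value was that of pLV-Exo-Wnt5a replicate 3, at 4.14 CPM against 2.40 and 2.70 in the other libraries of its group. Without it the log2FC was 0.79 against the Exo group and 1.15 against the Con group. The same library was the highest of its group for 8 of the 9 genes, all but Tlr7, whereas it was the highest for 37.4% of the 15446 genes kept over the 3 groups. Whether this library set the level of the group was not tested beyond leaving it out.

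Ly96, the partner of Tlr4, lay near the floor, with 7, 5 and 9 counts in the Con libraries, 7, 8 and 4 in the Exo libraries and 6, 1 and 12 in the pLV-Exo-Wnt5a libraries. The 3 groups overlapped, and a difference was not detectable at this depth. It did not pass the filter on low counts in any comparison.

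The adaptors lay far above the floor. Myd88, the adaptor of most TLRs, had 254 to 349 counts in the Con group, 295 to 314 in the Exo group and 266 to 349 in the pLV-Exo-Wnt5a group, or 8.43 ± 0.663, 7.69 ± 0.205 and 7.74 ± 0.633 CPM (SD, n = 3 each). Its log2FC was -0.13 (95% interval -0.45 to 0.19) between Exo and Con, while pLV-Exo-Wnt5a gave 0.02 (-0.27 to 0.30) relative to Exo and -0.13 (-0.47 to 0.22) relative to Con, so a change of 2-fold in either direction lay outside each interval. Ticam1, the adaptor of Tlr3, was at 19.6, 15.4 and 12.2 CPM in the Con libraries, 11.9, 11.7 and 14.6 CPM in the Exo libraries and 13.4, 11.8 and 14.9 CPM in the pLV-Exo-Wnt5a libraries. The groups overlapped, Con replicate 1 was the highest library, and the log2FC was -0.30 (-0.70 to 0.10), 0.08 (-0.21 to 0.37) and -0.24 (-0.63 to 0.15) in the same order of comparisons.

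The kinases also overlapped between most groups. Irak1, which is phosphorylated by Irak4 and passes the signal to Traf6, had mean levels of 62.5 ± 3.94 CPM for Con, 60.7 ± 5.50 for Exo and 57.9 ± 3.73 for pLV-Exo-Wnt5a (SD, n = 3 each). Its 95% intervals were the narrowest of the 7 genes tested, with log2FC of -0.04 (-0.25 to 0.17), -0.06 (-0.24 to 0.13) and -0.11 (-0.32 to 0.10). Irak4 was at 9.12, 7.55 and 7.54 CPM in the Con libraries, 7.50, 7.06 and 7.32 CPM in the Exo libraries and 6.99, 5.98 and 10.9 CPM in the pLV-Exo-Wnt5a libraries. The Exo libraries lay just below the Con libraries, and the pLV-Exo-Wnt5a group was the most spread, again with replicate 3 at the top. For pLV-Exo-Wnt5a against Exo the log2FC of Irak4 was 0.14 (-0.31 to 0.58), and -0.17 without that replicate.

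**Figure D2:**
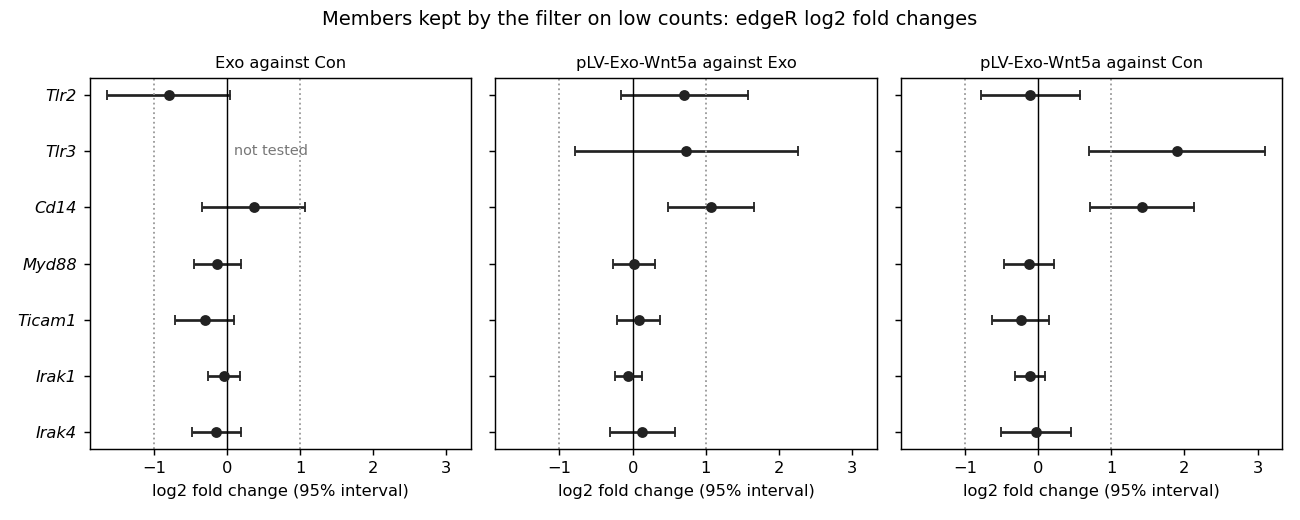
log2FC from edgeR with 95% intervals for the 7 genes that passed the filter on low counts, 1 panel per comparison; dotted lines mark a 2-fold change. Intervals that leave out 0 are those of Cd14 in both comparisons of the pLV-Exo-Wnt5a group and of Tlr3 against the Con group.

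Genes were called when the p-value adjusted over all genes tested (Q, Benjamini-Hochberg) was under 0.05 and the fold change above 2 or below 0.5. With edgeR's quasi-likelihood test, 0 of the 6 to 7 genes tested were called in any comparison, against 0.00664% of all genes in the Exo and Con comparison. For pLV-Exo-Wnt5a the share of all genes was 0.159% relative to Exo (0.139% higher and 0.0198% lower) and 0.0663% relative to Con. The smallest Q were 0.346, 0.122 and 0.269 in the same order. At an unadjusted p under 0.05, the edgeR counts were 0 of 6 (all genes, 14.9%), 1 of 7 (12%) and 2 of 7 (8.35%), and DESeq2, the tool the study used, gave the same counts (all genes, 14.3%, 12.4% and 8.18%). With the fold change and adjusted p limits, DESeq2 called Cd14 in both comparisons of the pLV-Exo-Wnt5a group (adjusted p = 0.0153 against Exo and 0.0186 against Con) and none of the others. For Exo against Con it gave no adjusted p for Cd14 and Tlr2, so neither could be called there. DESeq2 called 0.186%, 0.489% and 0.179% of all genes in the 3 comparisons.

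A second limit of the study was an unadjusted p under 0.05 with an absolute log2FC above 0.58. For Exo against Con 0 of 6 genes passed it, where 4.47% of all genes did (3.56% higher and 0.909% lower). Relative to Exo, Cd14 passed it in the pLV-Exo-Wnt5a group, where 3.49% of all genes did (1.51% higher and 1.98% lower). Relative to Con, Cd14 and Tlr3 passed it, where 2.16% of all genes did (1.46% higher and 0.696% lower). Libraries of the groups did not overlap for 2 of the 6 genes tested for Exo against Con, Tlr2 and Irak4, both lower (all genes, 23.3%, with 10.8% higher and 12.4% lower). Between both exosome groups they did not overlap for 1 of 7, Cd14 (all genes, 16.5%, with 7.9% higher and 8.57% lower), and between pLV-Exo-Wnt5a and Con for 2 of 7, Cd14 and Tlr3, both higher (all genes, 16.6%, with 7.52% higher and 9.09% lower). Nothing is read from these counts, because the set was selected on the same comparisons. The median log2FC over the genes tested was -0.14, 0.14 and -0.10 in the 3 comparisons, against 0.002, 0.005 and 0.004 over all genes. The comparisons share libraries, so their counts are not independent of each other.

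Other genes of the pathway, 38 in all, were taken as further receptors, accessory proteins, adaptors, kinases and interferon regulatory factors, and 35 of them had a row. Of the 26 to 27 that passed the filter, neither edgeR nor DESeq2 called any (0 in each comparison, by Q and fold change). At an unadjusted p under 0.05 edgeR gave 5 between Exo and Con, then 3 and 0 for pLV-Exo-Wnt5a relative to Exo and to Con, and DESeq2 gave 3, 4 and 0, where edgeR gave 14.9%, 12% and 8.35% of all genes. Groups did not overlap for 1 higher and 5 lower for Exo against Con (all genes, 10.8% and 12.4%), and for 4 higher and 2 lower between both exosome groups (7.9% and 8.57%). For pLV-Exo-Wnt5a against Con they did not overlap for 2 higher and 0 lower (7.52% and 9.09%). Their median log2FC was 0.03, 0.06 and -0.03.

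With the second limit, 3 of the 27 were lower for Exo against Con (all genes, 0.909%). Tlr5 was at 4.85, 3.57 and 4.45 CPM in the Con libraries and 2.60, 2.68 and 2.98 CPM in the Exo libraries, with no overlap. Its log2FC was -0.64 with a standard error of 0.20 (edgeR, Q = 0.265). Ly86, the partner of the TLR relative Cd180, had a log2FC of -1.60 (0.67, Q = 0.314 from the same test), and Irf5, a transcription factor activated through Myd88, -1.23 (0.52, Q = 0.315). Between both exosome groups Irf5 did not overlap, at 0.884, 0.709 and 0.412 CPM with pLV-Exo-Wnt5a and 0.230, 0.398 and 0.278 CPM with Exo (log2FC 1.14, standard error 0.48, Q = 0.375 from edgeR). Ly86 and Irf5 had few counts, at most 23 and 45 in any library, and each passed the filter on low counts through the group in which it is high. Ly86 had 9, 1 and 7 counts and Irf5 had 9, 16 and 11 counts in the Exo libraries. Tollip, an adaptor that restrains TLR signalling and the gene of the list with the most counts, was at 178 to 191 CPM in all 9 libraries.

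TLRs also respond to proteins released from cells or matrix. Of 11 such ligands, 10 had a row and 8 were tested. Of these, edgeR and DESeq2 both called 0 with the fold change limit in each comparison, and both gave 2, 3 and 3 at an unadjusted p under 0.05 (all genes in edgeR, 14.9%, 12% and 8.35%).

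Tnc, a matrix protein that can activate Tlr4, had the most counts of the ligands and was lowest in the pLV-Exo-Wnt5a group, at 178, 182 and 195 CPM against 284, 298 and 269 CPM in the Con group. Its log2FC of -0.62 (standard error 0.08) had Q = 0.0201 in edgeR and missed the fold change limit. Vcan, a matrix proteoglycan that can bind Tlr2, had a log2FC of -0.61 in the same comparison (0.18, Q = 0.433 from edgeR). Both passed the second limit (lower, all genes, 0.696%) and were lower in 3 of 3 libraries. S100a8, a ligand released by myeloid cells, had at most 1 count in any library.

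Genes that TLR signalling is known to induce were examined next, 24 in all, of which 23 had a row and 11 were tested. The classical cytokines were at or near the floor: Tnf, Il1b and Il6 had at most 7, 1 and 1 counts in any library. Among the 11 tested genes, edgeR called 0 in each comparison by Q and fold change, with 0, 7 and 5 at an unadjusted p under 0.05. DESeq2 called 0, 2 and 0 (all genes, 0.186%, 0.489% and 0.179%), and gave 0, 7 and 5 at an unadjusted p. The shares of all genes at that p in edgeR were 14.9%, 12% and 8.35%.

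With the second limit, 6 of the 11 were higher for pLV-Exo-Wnt5a against Exo (all genes, 1.51%), 4 of 11 were higher for pLV-Exo-Wnt5a against Con (1.46%), and 0 passed for Exo against Con. The median log2FC was 0.66, 0.63 and -0.11. This list, like the pathway and ligand lists, was written with earlier results of these data known. Nothing is therefore read from its counts, which are given as a description. The chemokine Cxcl10 was at 1.46, 1.50 and 2.30 CPM in the pLV-Exo-Wnt5a libraries and between 0.561 and 0.919 CPM in the Exo libraries, which gave 1.36 as its log2FC (standard error 0.35, edgeR, Q = 0.139).

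The adhesion molecule Icam1 had a log2FC of 1.03 (0.26, Q = 0.134 from the same test), and Ifit3, an interferon-induced gene, 1.23 (0.35, Q = 0.176). Socs3, an inhibitor of cytokine signalling, Nfkbiz, an atypical IκB protein, and Ier3, an early response gene, had log2FC of 0.77, 0.66 and 0.63. Of all 11 tested genes, 7 did not overlap between both exosome groups and were higher with pLV-Exo-Wnt5a (all genes, 7.9%). Against the Con group, Ifit3, Cxcl10, Socs3 and Nfkbiz passed the second limit, with log2FC of 1.35, 1.07, 0.67 and 0.63. Nfkbia, the NF-κB inhibitor with the most counts of the list, had a log2FC of 0.45 against Exo and 0.18 against Con. Within the pLV-Exo-Wnt5a group, replicate 3 was the highest library for Cxcl10, Icam1, Socs3, Nfkbiz, Ier3 and Nfkbia, but not for Ifit3.

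**Figure D3:**
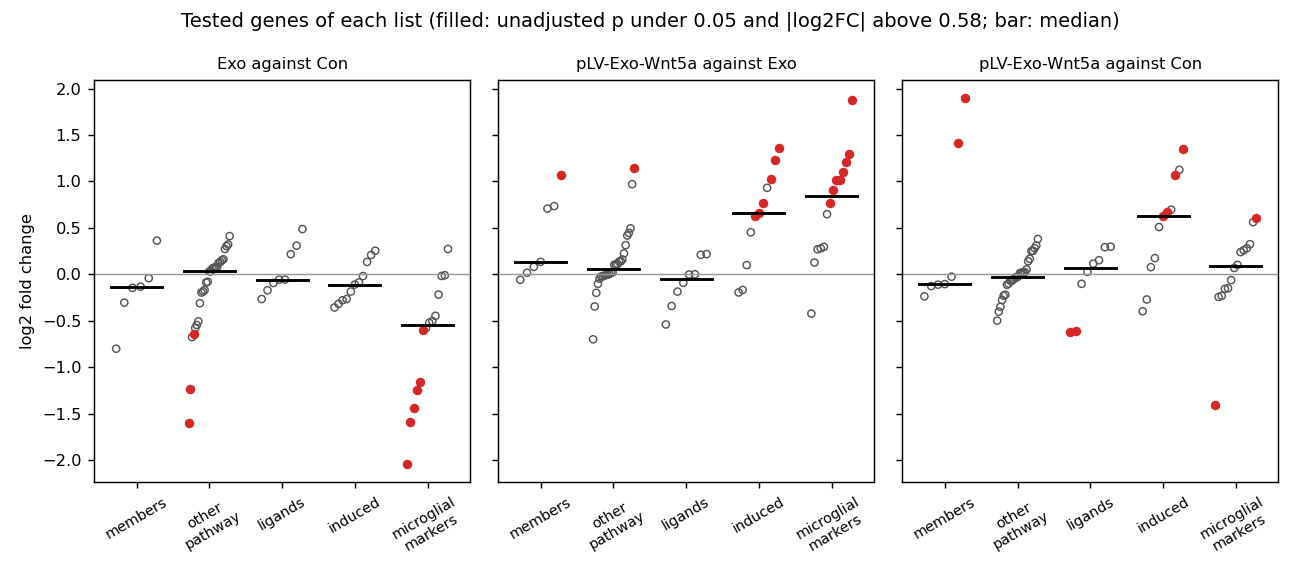
log2FC of the tested genes of each list in the 3 comparisons; filled points passed an unadjusted p under 0.05 with an absolute log2FC above 0.58, and bars are medians. The induced genes have medians of 0.66 and 0.63 in the comparisons of the pLV-Exo-Wnt5a group, and the other pathway genes stay near 0 at 0.06 and -0.03. The pathway, ligand and induced lists were written with earlier results of these data known.

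Because microglia carry TLRs and Cd14, 17 microglial and macrophage markers were set beside these results, and all had a row. Ptprc, P2ry12 and Tmem119, which define these cells, had 0 counts in at least 1 library and did not pass the filter, and 12 of the 17 had at least 10 counts in every library. Their summed level was 38.5 to 40.5 CPM for Con, 22.4 to 23.8 CPM for Exo and 40.3 to 50.7 CPM for pLV-Exo-Wnt5a. With the second limit, 6 of 14 tested markers were lower for Exo against Con (all genes, 0.909%) and 8 of 14 higher for pLV-Exo-Wnt5a against Exo (1.51%), of which Lyz2 alone was also called by Q and fold change in edgeR (log2FC 1.21, standard error 0.16, Q = 0.0113). By Q and fold change edgeR called 0, 1 and 0 markers in the 3 comparisons (all genes, 0.00664%, 0.159% and 0.0663%), and DESeq2 called 3, 5 and 0 (all genes, 0.186%, 0.489% and 0.179%). The 6 lower markers were Csf1r, Cx3cr1, C1qa, C1qb, C1qc and Lyz2, with log2FC from -2.04 for Cx3cr1 to -0.60 for Lyz2. Cx3cr1 had 3, 14 and 12 counts in the Exo libraries and passed the filter on low counts through the Con group, in which it is high. The 8 higher ones were Csf1r, Itgam, C1qa, C1qb, C1qc, Laptm5, Ctss and Lyz2, from 0.77 for Laptm5 to 1.88 for Csf1r. For pLV-Exo-Wnt5a against Con, Lyz2 was higher (0.60) and Cx3cr1 lower (-1.40).

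The Exo group had the lowest mean of Tlr2 and of the summed markers. Not every marker followed: the mean of Trem2 was highest in the Exo group, and that of Ptprc was lowest in the Con group. Per 100 CPM of summed markers Tlr2 was 3.21 to 4.41 in the Con libraries, 1.90 to 5.01 in the Exo libraries and 2.58 to 4.32 in the pLV-Exo-Wnt5a libraries, so all groups overlapped. The summed markers of the Exo group lay below those of the Con group in every library, while Cd14 overlapped between these groups. Per 100 CPM of markers, Cd14 was 1.94 to 4.01 in the Con libraries, 5.93 to 6.95 in the Exo libraries and 5.32 to 10.3 in the pLV-Exo-Wnt5a libraries. On this scale both exosome groups overlapped, and each lay above the Con group. The part of microglia in these values, and in those of the induced genes, was not tested.

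Gfap, the intermediate filament of astrocytes, was also highest in the pLV-Exo-Wnt5a group, at 3971, 4071 and 4029 CPM against 2195 to 2275 CPM in the Exo group and 2261 to 3103 CPM in the Con group. Relative to Exo its log2FC was 0.86 (standard error 0.05, edgeR, Q = 3.4e-05), under the fold change limit. Of all 8 astrocyte markers, 3 had a higher and 5 a lower level than in Exo, with a median log2FC of -0.16. Slc1a2 and Gja1, a glutamate transporter and a gap junction protein, had log2FC of -0.42 and -0.29, and were named after their values were seen. Single markers of other cell types differed too between both exosome groups: Dcx, a marker of young neurons, was at a mean of 72.5 CPM with pLV-Exo-Wnt5a and 110 CPM with Exo, Vim, of stem cells, at 2043 and 1335 CPM, and Acta2, of mural cells, at 1.38 and 0.488 CPM. Dcx and Vim had Q = 0.0113 and 0.0389 in edgeR without reaching the fold change limit, and DESeq2 called Acta2. These 3 do not stand for their lists. Of the 7 neuronal markers, 2 had a higher and 5 a lower level than in Exo (median log2FC -0.085). Of the 6 stem cell markers, 4 were higher and 2 lower (0.04). Of the 4 fibroblast and mural markers tested, 4 were higher and 0 lower (0.22). The part of these cell types in the levels of Cd14 and the induced genes was not tested. The genes whose pattern was most like that of Cd14 over the 9 libraries, among 15445 compared on log2 CPM, were Lnx2, Tap2, Gpr137b, Entpd7 and Ppp3cc, with Pearson's r of 0.94, 0.94, 0.94, 0.92 and 0.92. These were the highest of many correlations over few libraries that share groups and depth, and they are a description.

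**Figure D4:**
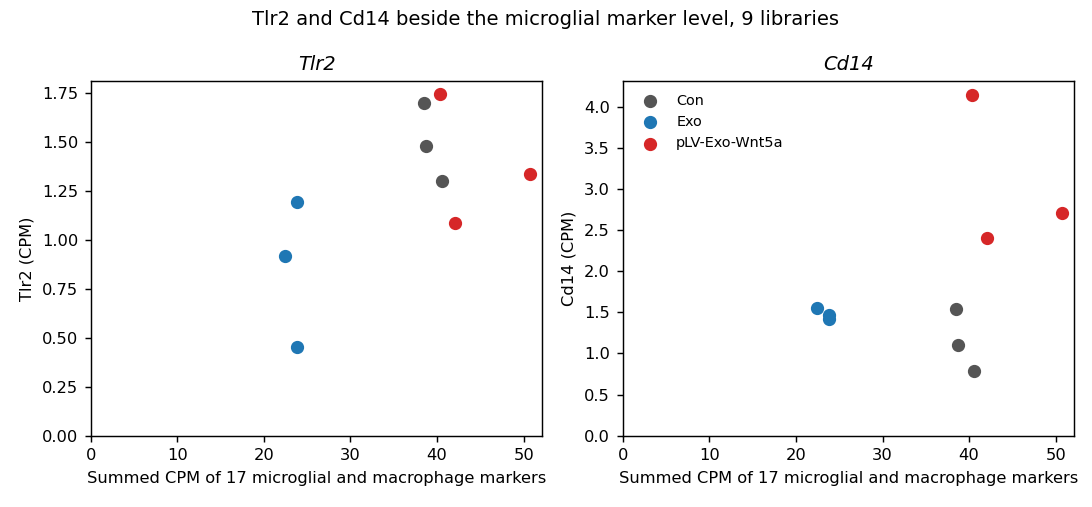
CPM of Tlr2 (left) and Cd14 (right) against the summed CPM of 17 microglial and macrophage markers, 1 point per library, coloured by group, both axes from 0. The Exo libraries lie lowest on the marker axis, at 22.4 to 23.8 CPM, where Tlr2 is 0.454 to 1.19 CPM and Cd14 is 1.41 to 1.56 CPM.

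The KEGG annotation in the count table lists 72 genes beside the members for Toll-like receptor signaling, a list added after the others had been examined. Of these, 28 are also in the lists above and 44 are not. Of the 54 to 56 tested, edgeR called 0 in each comparison by Q and fold change, with 9, 11 and 6 at an unadjusted p under 0.05, and DESeq2 gave 0, 2 and 0 (all genes, 0.186%, 0.489% and 0.179%), with 8, 12 and 7. The edgeR shares of all genes at that p were 14.9%, 12% and 8.35%. The median log2FC was 0.03, 0.06 and 0.02. The 5 that passed the second limit for pLV-Exo-Wnt5a against Exo, named after their values were seen, were Casp8, Cxcl10, Irf5, Spp1 and Fos, all higher (all genes, 1.51%). Casp8 had 12, 10 and 3 counts in the Exo libraries and 26, 21 and 66 in the pLV-Exo-Wnt5a libraries, so it passed the filter on low counts through the group in which it is high. Under the same limit 2 were lower for Exo against Con, Irf5 and Tlr5 (0.909%), and 3 were higher for pLV-Exo-Wnt5a against Con, Casp8, Cxcl10 and Fos (1.46%).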

How the data were processed

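For the 9 RNA-seq libraries the deposited values are raw counts per gene, in whole numbers and not normalized. The study's methods name HISAT2 for alignment, whereas the submitters' processing notes name Bowtie2, RSEM 1.3.1 and DESeq2 1.4.5, and the genome build and annotation are not given in the sources used here. The samples are rat, but the genes carry mouse symbols and mouse NCBI gene numbers, and no coordinates of these genes are given from the files. Each count column carries the name of 1 library, and 0 were left without a sample. Columns of pathway annotation were used for 1 list.

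From the deposited counts, each pair of groups was fitted over all genes with edgeR 4.0.16 (R 4.3.3): filterByExpr, TMM, and the quasi-likelihood test with Benjamini-Hochberg adjustment. DESeq2 1.42.0 was the alternative. Alternatives also covered RLE normalization, no filter, at least 10 counts in every library, all 9 libraries in the fit, the replicate number as a block, and each library left out. CPM used TMM over all 9 libraries. Standard errors were derived from the test statistic. Log2 CPM for the correlations used a prior count of 2. Replicates differed by more than sampling noise (chi-square per degree of freedom 7.50 to 50.2). The fits were tested on simulated data.

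The members and lists were chosen with earlier results of these data known. Named genes are the 10 members, genes of the pathway, ligand, induced, KEGG and microglial lists that passed either limit in any comparison, the gene with the most counts in each of the first 3 of these lists, and the 5 genes most like Cd14. Other genes were named after their values were seen: receptors, ligands, cytokines and microglial markers at or near the floor, and markers of other cell types. Astrocyte, neuronal, oligodendrocyte, stem cell, fibroblast and endothelial markers were used to describe the cultures, and some were also set beside Cd14 and the induced genes: fibroblast and mural markers summed to 14.9 to 27.6 CPM and endothelial markers to 0.149 to 0.654 CPM. Depth set the floor of 3 counts. Promoters came from the RefSeq table of GRCr8. Gene lengths and proteins were not used here.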

Additional observations from a re-analysis of the deposited data

How the results depend on the processing

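The log2FC of the 7 genes tested (not Tlr7 or Ly96) moved by less than the spread between replicates in 237 of 238 values under the alternatives, the exception being Tlr3 against Exo without Exo replicate 1 (2.24). That spread was the larger SD of both groups in log2 CPM, a wide limit that leaving out 1 library can rarely exceed. A change of sign within it also counted as unmoved, as for Irak4 against Exo (0.14, and -0.17 without pLV-Exo-Wnt5a replicate 3). The tally is therefore no measure of robustness. Without the filter on low counts, 1 of the genes, Cd14, was called against Exo and 1, Cd14, against Con, as with DESeq2 (1 and 1); the cause was not tested. The looser limit (unadjusted p, absolute log2FC above 0.58) gave 1 and 2, and 3 and 1 other pathway genes in the first and second comparison (Exo with Con, pLV-Exo-Wnt5a with Exo). No setting but this one called another pathway gene.

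Over all genes, 1, 24 and 10 were called for Exo against Con, pLV-Exo-Wnt5a against Exo and pLV-Exo-Wnt5a against Con. Without the filter there were 50, 69 and 33, with DESeq2 28, 74 and 27, with the looser limit 674, 528 and 326, and with all 9 libraries in the fit 2 for Exo against Con. Leaving out 1 library gave 0 to 138, 11 to 27 and 1 to 12. The 138 came without Con replicate 3, the 0 without Exo replicate 1 or Exo replicate 3, and the 2 without Con replicate 1. The 11 came without Exo replicate 2, with 14 and 13 without pLV-Exo-Wnt5a replicates 1 and 3. The 1 came when Con replicate 2 was dropped, and again when pLV-Exo-Wnt5a replicate 3 was, with 3 and 2 without pLV-Exo-Wnt5a replicates 1 and 2. Same-numbered libraries did not deviate together (r across genes -0.21 to 0.07 over 9 pairs). This check cannot exclude a shared culture or preparation, which the sources used here do not give. With the replicate number as a block there were 0, 28 and 20 calls over all genes. Among the genes tested here there were 0 in each comparison.

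At this depth Tlr7 and Ly96, and Tlr3 in part, had counts at or near the floor.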
